A study of Mus musculus with 7 samples.

Results

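The 42 genes described here act in the cell cycle and in DNA replication, and their transcripts were measured in mouse kidneys with low and with high levels of Cdkn1a, the gene for the cyclin-dependent kinase inhibitor p21. They were chosen by name: each row of the expression table whose gene symbol was one of 42 given symbols was taken, in all 7 libraries. All 42 were found among the 17537 genes of the table. A test across genes covered the 13976 genes that reached 1 CPM (CPM is a gene's read count scaled to the size of its library) in at least 2 libraries. Of the 42 genes, 39 were in that test, while Ccne1, Cdc6 and Bub1 were too low. The genes form 8 groups by role: 4 regulators of the step from G1 to S phase, 9 genes of origin licensing and the replication fork, 4 of nucleotide supply, 7 mitotic cyclins and kinases, 4 of the spindle checkpoint and the anaphase-promoting complex, 3 of the centromere, 7 of the spindle and cytokinesis, and 4 of chromatin and the nuclear lamina. The fork and nucleotide genes together make the replication list of 13, and the 4 groups from mitotic cyclins to cytokinesis make the mitosis list of 21.

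All 7 libraries came from renal tissue of wild-type C57BL/6 mice, which the labels give as male and 8 to 10 weeks old at the start. The group C (3 libraries, replicates 2, 8 and 9) was nondiabetic and received citrate buffer alone. The group DM-22 (2 libraries) received streptozotocin, a toxin of the insulin-producing beta cells, at 60 mg/kg on 5 days and stayed hyperglycemic for 22 weeks. The group DM+SGLT2i (2 libraries) was made diabetic in the same way and from week 16 drank dapagliflozin, an inhibitor of the renal glucose transporter SGLT2, at 25 mg/kg for 6 weeks. Between 46456125 and 56541594 reads per library fell on the listed genes, so that 1 read was worth between 0.0180 and 0.0231 CPM. The labels number the libraries but do not state that each came from its own animal, so the tests measure only the spread between these libraries. The tissue is a mixture of cells, and in such libraries fewer cells of a type and less RNA per cell cannot be told apart.

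A cell enters S phase when cyclin D and cyclin E kinases phosphorylate the retinoblastoma protein RB and free the E2F factors, which turn on the genes for replication proteins and nucleotide synthesis. The genes for mitosis are turned on later, through the MuvB complex with B-MYB and FOXM1, at a promoter element called CHR (cell cycle genes homology region). p21 inhibits the cyclin-dependent kinases and binds PCNA. When p21 is high, RB and its relatives p107 and p130 hold E2F and CHR promoters silent, and a lasting arrest of this kind is a hallmark of senescence. Adult tubular cells are mostly quiescent and re-enter the cycle after injury.

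The promoters of these genes carry the elements named above. RefSeq promoter windows (GRCm38.p6, from 250 bases before to 50 bases after the start of transcription) were matched by symbol for 35 of the 42 genes. E2F sites were searched on both strands as TTTCGCGC, TTTGGCGC, TTTCCCGC and TTTGCCGC, and CHR elements as TTTGAA and TTCGAA; E2F letters can overlap each other where both strands of an inverted site match. An E2F match was present in 38.5% of the windows of the replication list, in 5.56% of those of the mitosis list and in 2.26% of all 32851 windows. A CHR match was present in 77.8% of the mitosis windows, 23.1% of the replication windows and 19.2% of all windows. CCAAT boxes, which often lie beside either element, were in 88.9% of the mitosis windows, 76.9% of the replication windows and 37.4% of all windows. The replication promoters shown first hold the E2F letters in capitals. They belong to the helicase genes Mcm3 and Mcm5, with the smallest unadjusted p of the replication list, and to Mcm6, with 3 matches.
Mcm3 (chr1:20820263-20820353, minus strand): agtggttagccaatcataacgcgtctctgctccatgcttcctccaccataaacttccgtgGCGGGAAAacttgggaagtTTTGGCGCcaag
Mcm5 (chr8:75109296-75109427, plus strand): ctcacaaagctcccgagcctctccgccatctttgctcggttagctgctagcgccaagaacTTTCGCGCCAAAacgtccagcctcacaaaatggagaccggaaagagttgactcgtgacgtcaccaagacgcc
Mcm6 (chr1:128359685-128359875, minus strand): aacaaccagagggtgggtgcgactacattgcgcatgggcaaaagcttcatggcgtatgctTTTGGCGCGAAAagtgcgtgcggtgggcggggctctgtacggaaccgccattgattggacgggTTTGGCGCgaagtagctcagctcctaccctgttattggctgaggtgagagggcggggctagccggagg

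The mitosis and proliferation promoters below hold the CHR letters in capitals, and belong to the cyclin and kinase genes of mitotic entry and to the usual proliferation markers Mki67 and Top2a, which are compared between libraries further on. All sequences run 5′ to 3′ on the strand of the gene. A match is a description of these letters only.
Cdk1 (chr10:69352863-69353043, minus strand): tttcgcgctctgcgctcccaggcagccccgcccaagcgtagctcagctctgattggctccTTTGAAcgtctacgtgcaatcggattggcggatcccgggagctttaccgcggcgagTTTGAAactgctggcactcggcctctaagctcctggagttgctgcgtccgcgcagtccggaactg
Ccnb2 (chr9:70421505-70421781, minus strand): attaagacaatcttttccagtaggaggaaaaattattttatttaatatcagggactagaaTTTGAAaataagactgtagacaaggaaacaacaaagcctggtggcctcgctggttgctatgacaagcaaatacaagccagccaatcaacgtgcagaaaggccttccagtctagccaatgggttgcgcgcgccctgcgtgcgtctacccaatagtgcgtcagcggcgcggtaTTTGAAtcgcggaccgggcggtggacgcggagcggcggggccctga
Plk1 (chr7:122159405-122159484, plus strand): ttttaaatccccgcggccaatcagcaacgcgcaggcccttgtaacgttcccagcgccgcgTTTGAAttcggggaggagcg
Mki67 (chr7:135716412-135716555, minus strand): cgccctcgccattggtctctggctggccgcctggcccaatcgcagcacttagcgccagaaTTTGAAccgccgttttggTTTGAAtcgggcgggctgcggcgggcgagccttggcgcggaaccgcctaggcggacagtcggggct
Top2a (chr11:99024147-99024428, minus strand): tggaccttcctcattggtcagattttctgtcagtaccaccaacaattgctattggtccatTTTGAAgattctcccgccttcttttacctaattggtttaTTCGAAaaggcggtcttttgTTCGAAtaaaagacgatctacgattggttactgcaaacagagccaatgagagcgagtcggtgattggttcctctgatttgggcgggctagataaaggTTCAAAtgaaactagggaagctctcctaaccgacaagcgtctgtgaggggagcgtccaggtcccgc

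Cdkn1a (chromosome 17, 29090976 to 29100727 of GRCm38, plus strand) was at 72.7 CPM in C replicate 2, 4.63 CPM in C replicate 8 and 5.36 CPM in C replicate 9. It was at 52.6 and 123 CPM in the DM-22 libraries and at 78.6 and 77.3 CPM in the DM+SGLT2i libraries. C replicate 2 thus lay among the diabetic libraries, and the counts, list medians and fold changes against C below are given with and without it. Fold changes between the diabetic groups use it only for the spread. In limma, Cdkn1a was higher by 2.64 ± 1.13 (log2 fold change ± SE) in DM-22 than in all 3 C libraries, with an adjusted p of 0.804, and by 2.59 ± 1.13 in DM+SGLT2i (adjusted p = 0.9997). With C replicate 2 left out it was higher by 3.89 ± 0.38 in DM-22 (adjusted p = 0.0781) and by 3.84 ± 0.38 in DM+SGLT2i (adjusted p = 0.0490), and only the latter passed the threshold.

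Most of the 42 genes were higher, not lower, in the libraries with high Cdkn1a than in C replicates 8 and 9. C replicate 2, with high Cdkn1a, had the highest value of the 7 libraries for 28 of the 42 genes. Among tested genes this was so for 26 of 39 members, against 16.4% of all genes. Its level relative to the mean of C replicates 8 and 9 had a median ratio of 2.12 over the 42 genes, with 38 above 1, against a median of 0.985 over all tested genes. The ratio was 1.71 at the median of the replication list and 2.53 at that of the mitosis list. The mean of the 4 diabetic libraries was above that of C replicates 8 and 9 for 34 of the 42 genes, with a median ratio of 1.45 against 1.01 over all tested genes. The 4 diabetic libraries all lay above C replicates 8 and 9 for 20 of the 42 genes (19 of 39 tested, against 15.1% of all genes). They all lay below C replicates 8 and 9 for 3, namely Cdk2, Tk1 and Cenpe (20.8% of all genes). Of the 20, Ccnb1, Cdk1, Aurkb, Ube2c, Tpx2 and Birc5 were under 1 CPM in both C replicates 8 and 9. They entered the test only through libraries in which they were higher, so their place in this count is no support. The same holds for these genes, Plk1 and Cenpf among the 26 that were highest in C replicate 2.

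**Figure D1:**
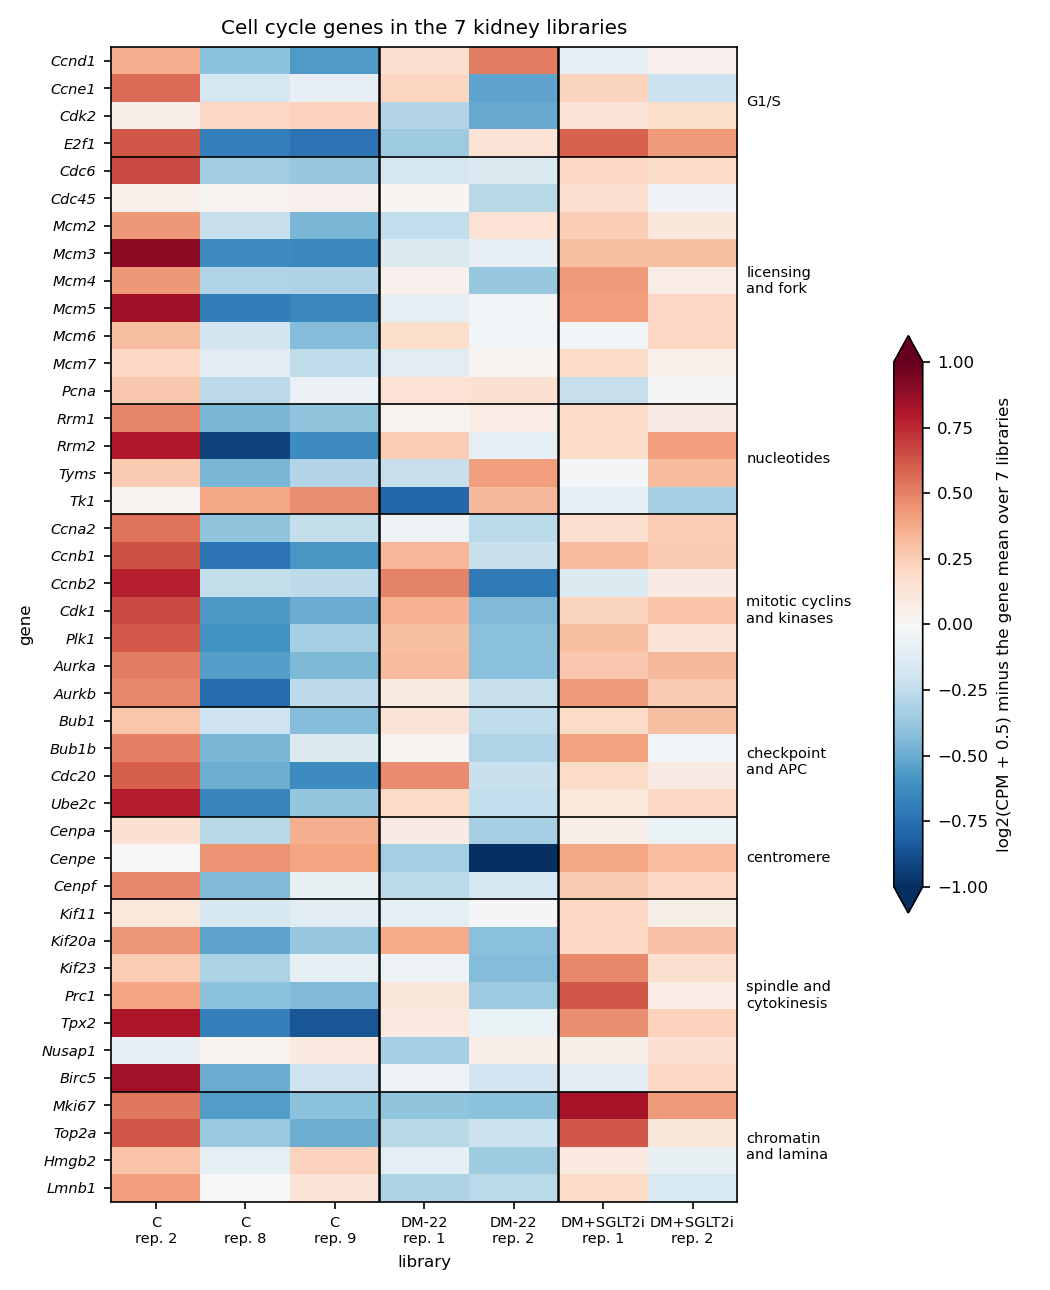
Level of the 42 genes (rows, grouped by role) in the 7 libraries (columns), as log2(CPM + 0.5) minus the gene's mean over the 7 libraries; red is above and blue below that mean, and values past 1 in either direction share the end colours. C replicate 2 is the highest library for 28 of 42 genes, and Tk1, Cdk2 and Cenpe run against the other rows.

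The summed level of the replication list was 238 CPM in C replicate 2, against 147 and 146.5 CPM in C replicates 8 and 9. It was 181 and 189 CPM in DM-22 and 191 and 196 CPM in DM+SGLT2i, so that all 4 diabetic libraries lay between the low and the high C libraries. The summed level of the mitosis list was 48.5 CPM in C replicate 2, 24.3 and 27.4 CPM in C replicates 8 and 9, 36.1 and 24.9 CPM in DM-22, and 41.2 and 38.6 CPM in DM+SGLT2i. Here DM-22 replicate 2, the library with the highest Cdkn1a, lay among C replicates 8 and 9, apart from the other diabetic libraries. The ratio of the replication sum to the mitosis sum was therefore highest in that library, at 7.58, against 4.65 to 6.05 in the other 6. That library also had the most genes at 0 reads (313, against 64 to 174 in the others). Its mitosis sum rests on 1077 reads. Between the DM-22 libraries, replicate 1 was above replicate 2 for 18 of the 21 mitosis genes but for 4 of the 13 replication genes; over all tested genes it was above for 48.0%. The RB, E2F and MuvB genes, a list of other cell cycle regulators described below, showed the same order of the DM-22 libraries for 15 of 19, so the order is not particular to mitosis.

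**Figure D2:**
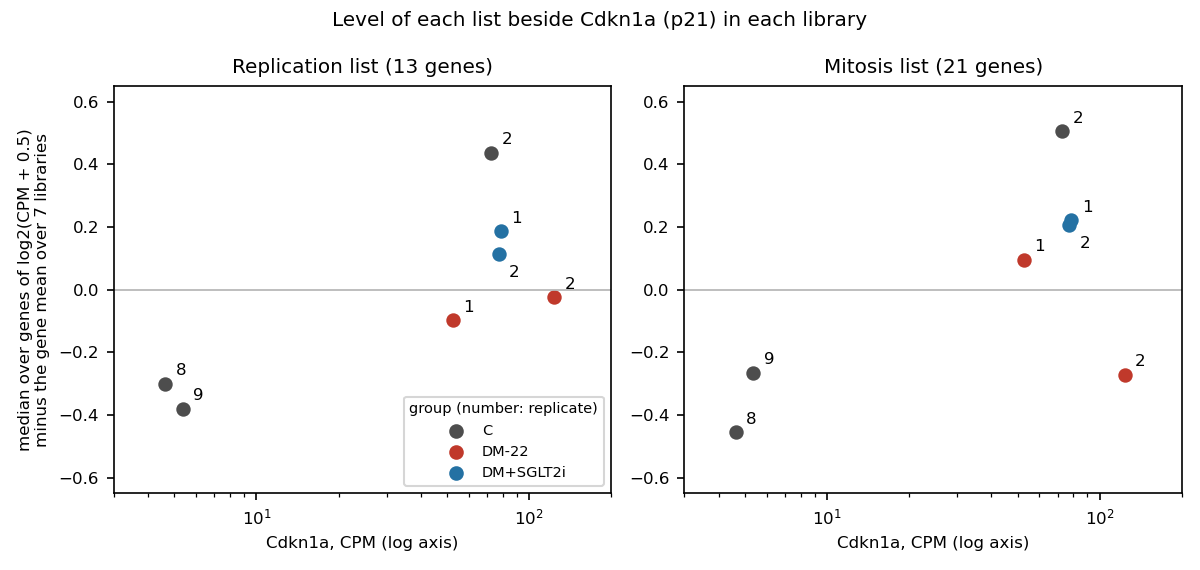
Level of the replication list (left) and the mitosis list (right) in each library, as the median over its genes of log2(CPM + 0.5) minus the gene's mean, against Cdkn1a in CPM on a log axis; numbers are replicates. On the right, DM-22 replicate 2 (123 CPM of Cdkn1a) sits with C replicates 8 and 9, while on the left it sits above them.

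Markers of several other cell types also differed between the libraries, not all in the order of these sums. The 5 markers of injured tubule cells (Havcr1, Lcn2, Vcam1, Sox9, Krt20) summed to 151 CPM in C replicate 2, 13.3 and 16.2 CPM in C replicates 8 and 9, 73.1 and 20.0 CPM in DM-22, and 64.2 and 61.4 CPM in DM+SGLT2i. The 6 macrophage markers summed to 488 CPM in C replicate 2, 136 and 135 CPM in C replicates 8 and 9, 269 and 144 CPM in DM-22, and 249 and 295 CPM in DM+SGLT2i. Both lists had the lowest diabetic value in DM-22 replicate 2, as the mitosis list had. Single markers differed in this. Lcn2 was at 52.7 and 2.13 CPM in the DM-22 libraries, while Sox9 was highest of the diabetic libraries in DM-22 replicate 2 (2.405 CPM). Among macrophage markers, Csf1r was at 110 and 37.3 CPM in DM-22, but Cd68 at 5.60 and 5.55 CPM. The 7 proximal tubule markers summed to 7139 and 7842 CPM in C replicate 2 and DM-22 replicate 1, and to 11071 and 10842 CPM in DM+SGLT2i. Their sum was 14212 to 16296 CPM in the other 3 libraries. Aqp1 of this list ran the other way, at 1667 CPM in C replicate 2 and 2121 CPM in DM-22 replicate 1. It was at 887 CPM in DM-22 replicate 2 and at 1017 and 1030.5 CPM in C replicates 8 and 9. The 4 fibroblast markers were at 452 CPM in C replicate 2, 366 and 266 CPM in DM+SGLT2i and 93.9 to 142 CPM in the other 4 libraries. The 6 T cell markers ranged from 4.85 CPM (C replicate 9) to 12.9 CPM (C replicate 2), and the 7 markers of B and plasma cells, at 23.1 to 139 CPM, were highest in C replicate 9. The 4 endothelial markers were at 272 to 319 CPM throughout. The 4 markers of the thick ascending limb and distal tubule summed to 12860 CPM in DM-22 replicate 1 against 4269 to 7627 CPM elsewhere. In that library Umod and Slc12a1 were highest (6933 and 5580 CPM), but Slc12a3 and Pvalb were lowest (340 and 7.34 CPM). Markers of the collecting duct summed to 304 to 819 CPM and those of podocytes to 236 to 618 CPM. The 3 urothelial markers were at 85.2 CPM in DM+SGLT2i replicate 1, 30.7 CPM in C replicate 2 and 0.902 to 7.74 CPM in the others. The 2 listed neutrophil markers of 4 summed to 0.779 to 3.46 CPM, and the 1 listed red blood cell marker of 5 lay between 4.42 and 32.8 CPM. None of the listed markers was at 0 in any library. The part of these cells in the levels of the cell cycle genes was not tested.

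**Figure D3:**
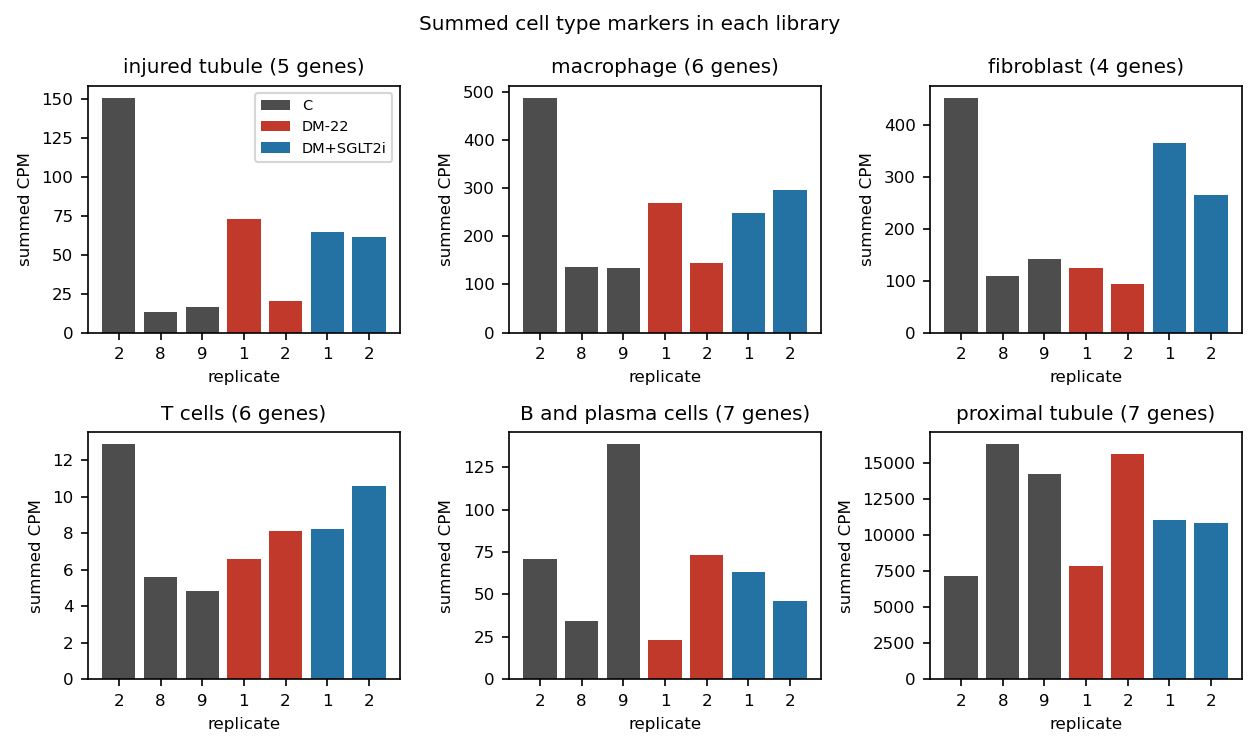
Summed CPM of marker genes of 6 cell types (panels) in each library (bars, 1 library each; colours are groups, numbers replicates). Injured tubule and macrophage markers are highest in C replicate 2, at 151 and 488 CPM, and proximal tubule markers are lowest there, at 7139 CPM.

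No gene of the 42 passed the adjusted threshold in any comparison with limma, with or without C replicate 2. With all 3 C libraries, this held for every gene of the table (0.0% of 13976 in DM-22 against C, 0.0% in DM+SGLT2i against C and 0.0% in DM+SGLT2i against DM-22). Without C replicate 2, 0.0143% of all genes passed in DM-22 against C, 0.122% in DM+SGLT2i against C and 0.0% between the diabetic groups. The smallest adjusted p of a member was then 0.0880, for Mcm5 and Mcm3 in DM+SGLT2i against C. The counts that follow therefore use an unadjusted p under 0.05, beside the share of all tested genes that met it, and are descriptions.

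In DM-22 against all 3 C libraries, 0 of the 39 members were higher at an unadjusted p under 0.05 (1.19% of all genes) and 2 were lower, Cdk2 and Cenpe (3.28% of all genes). The 2 became 1 without DM-22 replicate 2. When C replicate 2 was left out, 8 were higher (10.4% of all genes) and 2 lower (14.8%). The 8 were Ccnd1, E2f1, Mcm3, Mcm5, Rrm1, Rrm2, Ccnb1 and Tpx2. Of these, Ccnb1 and Tpx2 reached 1 CPM in neither C replicate 8 nor C replicate 9. They entered the test only through libraries in which they were higher, so their place in the count is no support. The median log2 fold change of the replication list was 0.07 with all C libraries and 0.35 without C replicate 2, and that of the mitosis list was 0.02 and 0.27, while the median over all genes was 0.00 and 0.01. The SD of a list's level between replicates, on the same log2 scale, was 0.32 (replication) and 0.38 (mitosis) over all 7 libraries and 0.04 and 0.17 without C replicate 2. The medians with all C libraries were smaller than the first spread. Those without C replicate 2 were larger than the second, which rests on 3 pairs of libraries. Leaving out C replicate 2 both raised the medians and narrowed the spread, so that they then exceeded it is no support. Leaving out other libraries also moved these medians. They were -0.03 (replication) and -0.19 (mitosis) without C replicate 8, -0.12 and -0.09 without C replicate 9, 0.11 and -0.24 without DM-22 replicate 1, and 0.03 and 0.27 without DM-22 replicate 2. For 0 of the 42 genes did both DM-22 libraries lie above all 3 C libraries (10.8% of all tested genes), and for 5, Cdk2, Cdc45, Cenpe, Hmgb2 and Lmnb1, both lay below (9.29%).

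In DM+SGLT2i against all 3 C libraries, 0 members were higher at an unadjusted p under 0.05 (0.665% of all genes) and 0 were lower (0.415%). When C replicate 2 was left out, 17 of 39 were higher (8.73% of all genes) and 0 were lower (9.14%). The 17 were the 8 genes named above and Mcm2, Mcm4, Mcm6, Aurka, Aurkb, Ube2c, Prc1, Mki67 and Top2a. Of these, Ccnb1, Tpx2, Aurkb and Ube2c reached 1 CPM in neither C replicate 8 nor C replicate 9. Only libraries in which they were higher brought them into the test, so their place in the count is no support. The median log2 fold change was 0.26 with all C libraries and 0.52 without C replicate 2 for the replication list, and 0.28 and 0.61 for the mitosis list, against -0.01 and -0.02 for all genes. The medians with all C libraries were smaller than the SD between replicates over all 7 libraries given above. Those without C replicate 2 were larger than the SD without it. Here too the omission raised the medians and narrowed the SD, so this is no support. The medians were 0.16 (replication) and 0.14 (mitosis) without C replicate 8, and 0.10 and 0.19 without C replicate 9. Both comparisons with C share the same C libraries and are therefore given side by side only. For 0 of the 42 genes did both DM+SGLT2i libraries lie above all 3 C libraries (5.67% of all tested genes), and for 1, Tk1, both lay below (6.59%).

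Between the diabetic groups, 37 of the 39 tested members had a higher fitted mean in DM+SGLT2i than in DM-22, against 50.6% of all tested genes. All 20 tested mitosis genes and 11 of the 12 tested replication genes were on that side. Their medians were 0.29 and 0.18 (log2 fold change), against 0.00 for all genes. These fitted means average log2 values. In mean CPM, Ccnb2, Cdc20 and Tk1 were lower in DM+SGLT2i than in DM-22 (ratios 0.959, 0.972 and 0.941). By that measure 19 of the 21 mitosis genes were higher in DM+SGLT2i. The mitosis median was 0.50 without DM-22 replicate 1 and 0.13 without DM-22 replicate 2, and the replication median was 0.11 and 0.22. At an unadjusted p under 0.05, 3 members were higher, Cdk2, Cenpe and Mki67 (2.25% of all genes), and 0 were lower (1.66%). When the spread was estimated without C replicate 2, 6 were higher (6.86% of all genes) and 0 lower (3.89%); the added genes were E2f1, Mcm3 and Top2a. The 3 became 0 without DM-22 replicate 2 or without either DM+SGLT2i library. Both DM+SGLT2i libraries lay above both DM-22 libraries for 20 of the 42 genes (18 of 39 tested; 21.4% of all genes) and below both for 2, Ccnd1 and Pcna (20.0%). The members Aurkb, Cenpf and Birc5 entered the test only through C replicate 2 and DM+SGLT2i libraries, the ones in which they were highest.

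**Figure D4:**
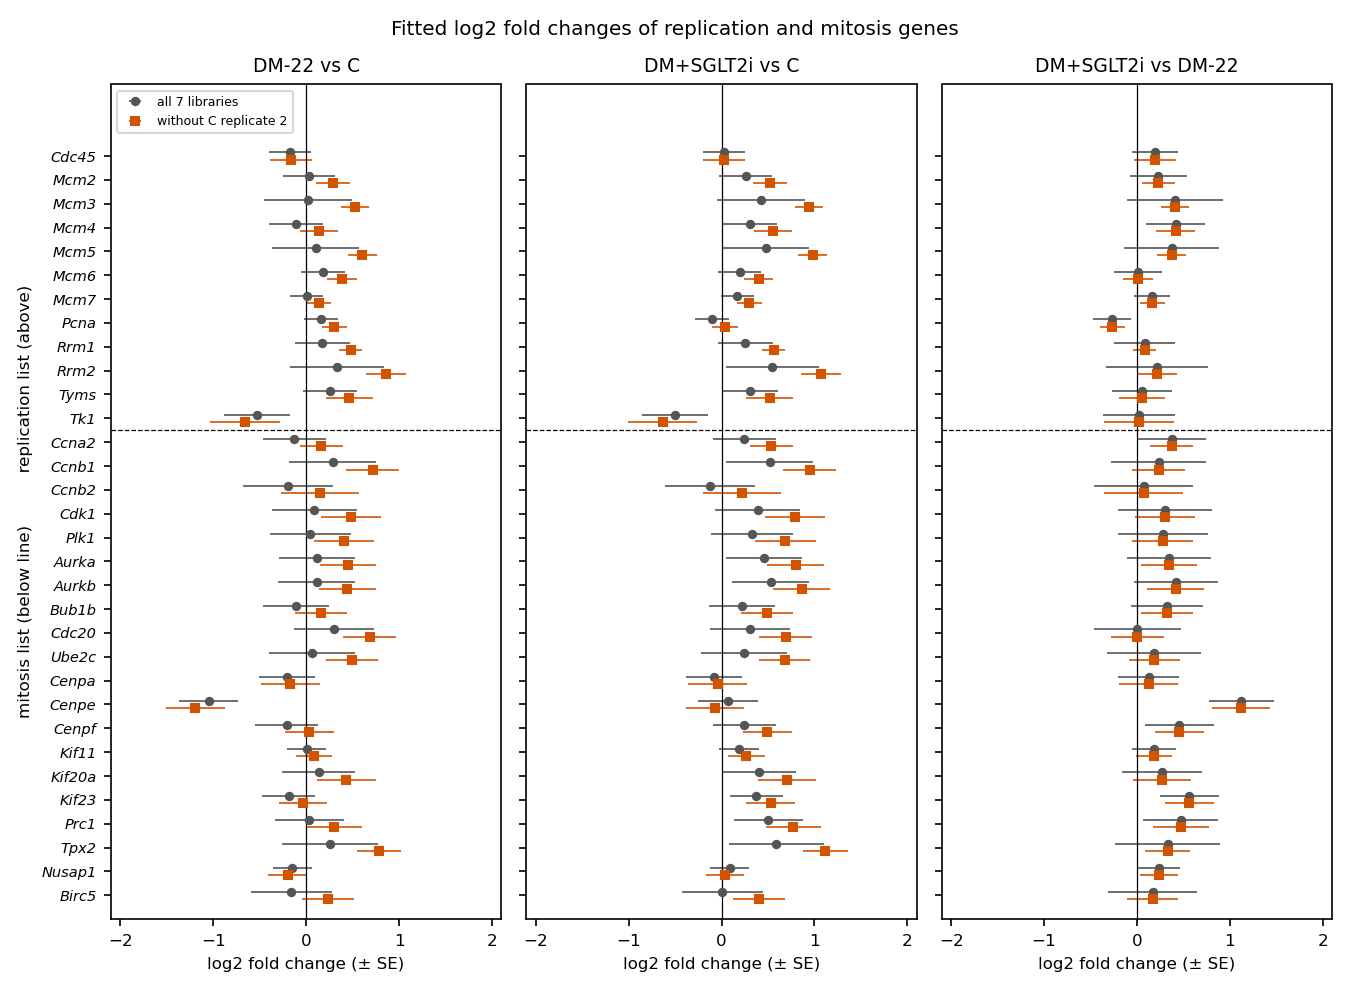
Fitted log2 fold changes with SE of the tested replication genes (above the dashed line) and mitosis genes (below it) in the 3 comparisons, from all 7 libraries (grey circles) and without C replicate 2 (orange squares). Leaving out C replicate 2 moves most points of the comparisons with C to the right, and Cenpe, at -1.05 in DM-22 against C and 1.12 in DM+SGLT2i against DM-22, lies apart from the other mitosis genes.

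Among the G1/S regulators, Ccnd1, which encodes cyclin D1, the partner of CDK4 and CDK6, had the highest level of the 42 genes per length of exon (81.2 CPM per kb on average; chromosome 7, 144929931 to 144939925, minus strand). Ccnd1 was at 478 CPM in C replicate 2, 278 and 250 CPM in C replicates 8 and 9, 414 and 527 CPM in DM-22, and 346 and 382 CPM in DM+SGLT2i. All 4 diabetic libraries lay above C replicates 8 and 9, and the DM+SGLT2i libraries lay below the DM-22 libraries. The log2 fold change of Ccnd1 in DM-22 was 0.54 ± 0.30 with all C libraries (limma adjusted p = 0.804) and 0.82 ± 0.18 without C replicate 2 (adjusted p = 0.0939). In DM+SGLT2i against DM-22 it was -0.36 ± 0.33 (adjusted p = 0.881; 0.473 without C replicate 2). E2f1, the factor that RB restrains, was at 7.64 CPM in C replicate 2, 2.80 and 2.67 CPM in C replicates 8 and 9, 3.65 and 5.34 CPM in DM-22, and 7.49 and 6.61 CPM in DM+SGLT2i. Its DM+SGLT2i values were above both DM-22 values and close to or below that of C replicate 2.

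Cdk2, the kinase that cyclins E and A activate and that p21 inhibits, ran the other way (chromosome 10, 128697939 to 128705031, minus strand). Cdk2 was at 9.84, 10.9 and 11.1 CPM in the C libraries, at 7.58 and 6.48 CPM in DM-22, and at 10.3 and 10.7 CPM in DM+SGLT2i. Both DM-22 libraries were below all others, and C replicate 2 stood close to the other C libraries. The log2 fold change in DM-22 against C was -0.57 ± 0.16 (unadjusted p = 0.0101, limma adjusted p = 0.804), and in DM+SGLT2i against DM-22 it was 0.55 ± 0.17 (unadjusted p = 0.0169, adjusted p = 0.881). Leaving out C replicate 2, the first was -0.62 ± 0.15 (adjusted p = 0.0999) and the second had an adjusted p of 0.463. Ccne1, which encodes cyclin E1, lay between 0.370 and 1.36 CPM (16 to 74 reads) and was not tested.

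The origin licensing and fork genes encode the MCM helicase (Mcm2 to Mcm7), its loader Cdc6, the helicase cofactor Cdc45 and the sliding clamp Pcna. Mcm3 was at 12.8 CPM in C replicate 2, 4.13 and 4.08 CPM in C replicates 8 and 9, 6.03 and 6.27 CPM in DM-22, and 8.32 and 8.31 CPM in DM+SGLT2i. Mcm5 was at 14.8 CPM in C replicate 2, 4.76 and 4.94 CPM in C replicates 8 and 9, 7.45 and 7.84 CPM in DM-22, and 10.9 and 9.30 CPM in DM+SGLT2i. For both genes the 3 groups did not overlap once C replicate 2 was set aside, in the order C, DM-22, DM+SGLT2i, and C replicate 2 lay above them all. The same order without overlap of these groups held for E2f1, Cdc6, Rrm1, Aurkb, Kif11, Tpx2 and Top2a, but C replicate 2 was not the highest library for Kif11 and Top2a. Cdc6 was not tested. Aurkb and Tpx2 were under 1 CPM in both C replicates 8 and 9 and entered the test only through libraries in which they were higher. Their place in this list is no support. Among all tested genes, 15.1% had all 4 diabetic libraries above C replicates 8 and 9. Both DM+SGLT2i libraries lay above both DM-22 libraries for 21.4%. The share with both features was not computed, so the members that had both are only listed. With all 3 C libraries the log2 fold changes in DM+SGLT2i were 0.43 ± 0.47 (Mcm3) and 0.48 ± 0.47 (Mcm5), each with an adjusted p of 0.9997 in limma. Without C replicate 2 they were 0.94 ± 0.15 and 0.98 ± 0.16, each with an adjusted p of 0.0880, and in DM-22 they were 0.53 ± 0.15 (adjusted p = 0.119) and 0.61 ± 0.16 (adjusted p = 0.106), against 0.02 ± 0.47 and 0.10 ± 0.47 with all C libraries (adjusted p = 0.994 and 0.971). The promoters of Mcm3 and Mcm5, printed above, hold 2 E2F matches each. That of Mcm6 holds 3, and those of Rrm2 and E2f1 hold none. A link between E2F matches and levels was not tested.

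The other helicase subunits differed less. Mcm2 was at 25.7 CPM in C replicate 2, 15.98 and 13.6 CPM in C replicates 8 and 9, 15.8 and 20.9 CPM in DM-22, and 22.4 and 20.4 CPM in DM+SGLT2i. Mcm4 was at 14.9 CPM in C replicate 2, 8.76 and 8.72 CPM in C replicates 8 and 9, 11.3 and 8.28 CPM in DM-22, and 14.8 and 11.5 CPM in DM+SGLT2i. For both, a DM-22 library lay within or below the range of C replicates 8 and 9. The ratio of C replicate 2 to the mean of C replicates 8 and 9 was 3.05 for Mcm5 and 3.12 for Mcm3, but 1.32 for Mcm7, 1.53 for Mcm6, 1.71 for Mcm4 and 1.74 for Mcm2, although the 6 proteins form 1 ring. Cdc6, at 0.278 to 1.10 CPM, had a ratio of 3.84 and was not tested. Cdc45 lay between 1.53 and 2.25 CPM in all libraries, with a ratio of 1.01.

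Pcna, the clamp that p21 binds, was at 52.1 CPM in C replicate 2, 35.8 and 41.3 CPM in C replicates 8 and 9, 47.5 and 47.8 CPM in DM-22, and 36.7 and 42.5 CPM in DM+SGLT2i. With Ccnd1, it was the other gene of the 42 whose DM+SGLT2i values were both below the DM-22 values. Between the diabetic groups its log2 fold change was -0.27 ± 0.20 (limma adjusted p = 0.881; 0.473 without C replicate 2). Pcna, Ccnb1 and Tyms have processed pseudogenes in the annotation (GENCODE M21), and how the authors' counting treated reads that match both was not given in the sources used here.

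Nucleotide supply is served by ribonucleotide reductase (Rrm1, Rrm2), thymidylate synthase (Tyms) and thymidine kinase (Tk1). Rrm2, the subunit that limits the enzyme in S phase, was at 9.73 CPM in C replicate 2, 2.59 and 3.29 CPM in C replicates 8 and 9, 6.50 and 5.00 CPM in DM-22, and 6.14 and 7.30 CPM in DM+SGLT2i. Rrm1 was at 24.7 CPM in C replicate 2, 12.5 and 13.1 CPM in C replicates 8 and 9, 17.8 and 18.4 CPM in DM-22, and 19.9 and 18.5 CPM in DM+SGLT2i. For both subunits all 4 diabetic libraries lay above C replicates 8 and 9 and below C replicate 2. Without C replicate 2 the log2 fold changes of Rrm2 were 0.86 ± 0.22 in DM-22 (limma adjusted p = 0.104) and 1.07 ± 0.22 in DM+SGLT2i (adjusted p = 0.116), while with all C libraries they were 0.33 ± 0.50 and 0.55 ± 0.50 (adjusted p = 0.876 and 0.9997). Tk1, chosen after its values were seen, was at 3.87, 5.09 and 5.41 CPM in C, 1.98 and 4.86 CPM in DM-22, and 3.52 and 2.91 CPM in DM+SGLT2i. It was the one S phase gene of the list with lower values in all 4 diabetic libraries than in C replicates 8 and 9, and its log2 fold change in DM-22 against C was -0.53 ± 0.36 (adjusted p = 0.804) with all C libraries and -0.66 ± 0.37 (adjusted p = 0.314) without C replicate 2.

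**Figure D5:**
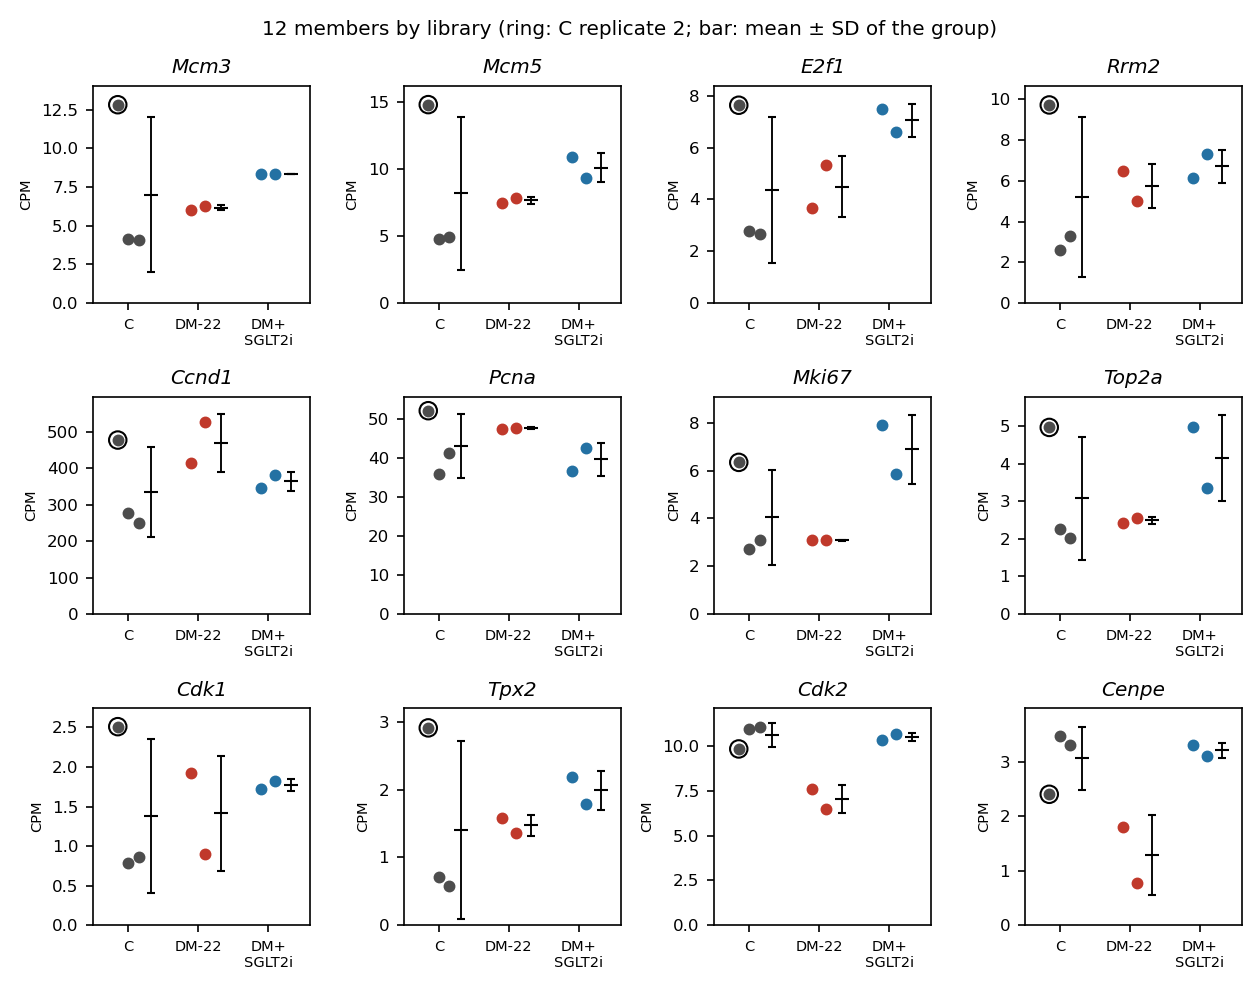
CPM of 12 of the 42 genes in each library, by group (dots; bars are the group mean ± SD; the ringed dot is C replicate 2; all axes start at 0). For Mcm3 and Mcm5 the ringed library lies above all others and C replicates 8 and 9 below all others, and for Cdk2 and Cenpe the DM-22 libraries are the lowest.

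The mitotic cyclins and kinases were low throughout. Cdk1, the kinase of mitotic entry, was at 2.51 CPM in C replicate 2, 0.779 and 0.855 CPM in C replicates 8 and 9, 1.93 and 0.902 CPM in DM-22, and 1.72 and 1.83 CPM in DM+SGLT2i, from 37 to 137 reads. Ccnb1, which encodes its partner cyclin B1, was at 2.00 CPM in C replicate 2, 0.463 and 0.577 CPM in C replicates 8 and 9, 1.53 and 0.879 CPM in DM-22, and 1.51 and 1.43 CPM in DM+SGLT2i. Aurkb, the kinase of the chromosomal passenger complex, was at 1.34 CPM in C replicate 2, 0.274 and 0.598 CPM in C replicates 8 and 9, 0.900 and 0.624 CPM in DM-22, and 1.27 and 1.08 CPM in DM+SGLT2i. In each of these genes C replicate 2 was highest and DM-22 replicate 2 was the lowest of the diabetic libraries. All 7 genes of the group (with Ccna2, Ccnb2, Plk1 and Aurka) shared both features. Among all tested genes C replicate 2 was highest for 16.4%. The share with DM-22 replicate 2 lowest of the diabetic libraries was not computed. DM-22 replicate 1 was above DM-22 replicate 2 for 48.0% of all tested genes. This order also held for 15 of 19 RB, E2F and MuvB genes and 29 of 44 further replication genes, so it is not particular to this group. For Cdk1 the log2 fold change in DM-22 against C was 0.09 ± 0.46 with all C libraries (limma adjusted p = 0.973) and 0.49 ± 0.32 without C replicate 2 (adjusted p = 0.377). That of Ccnb1 in DM+SGLT2i against C was 0.52 ± 0.47 (adjusted p = 0.9997) and 0.95 ± 0.29 (adjusted p = 0.190).

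The spindle checkpoint genes Bub1 and Bub1b, the activator of the anaphase-promoting complex Cdc20 and its ubiquitin-conjugating enzyme Ube2c were likewise lowest among the diabetic libraries in DM-22 replicate 2. Bub1 was the lowest of the 42 genes in CPM, at 0.495 CPM in C replicate 2, 0.211 and 0.107 CPM in C replicates 8 and 9, 0.396 and 0.185 CPM in DM-22, and 0.431 and 0.506 CPM in DM+SGLT2i. These values rest on 5 to 28 reads per library. Cdc20 had the highest level of the group, from 1.45 CPM in C replicate 9 to 4.07 CPM in C replicate 2. None of the group differed between groups at an unadjusted p under 0.05 with all C libraries, and without C replicate 2 only Ube2c did, in DM+SGLT2i against C.

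Of the centromere genes, Cenpe, a kinesin that carries chromosomes to the spindle equator, went against its list (chromosome 3, 135212537 to 135273611, plus strand). Cenpe was at 2.40, 3.47 and 3.31 CPM in C, at 1.80 and 0.763 CPM in DM-22, and at 3.31 and 3.11 CPM in DM+SGLT2i. Both DM-22 libraries lay below all others, and DM-22 replicate 2 held 33 reads. The log2 fold change was -1.05 ± 0.32 in DM-22 against C (unadjusted p = 0.0145, limma adjusted p = 0.804) and 1.12 ± 0.35 in DM+SGLT2i against DM-22 (unadjusted p = 0.0162, adjusted p = 0.881). The first was -1.19 ± 0.32 (adjusted p = 0.108) without C replicate 2, and the second then had an adjusted p of 0.463. Its promoter window held no CHR match of the letters searched, unlike those of Cenpa and Cenpf. The windows of Ccnb1, Birc5 and Nusap1 held none either, although C replicate 2 was the highest library for Ccnb1 and Birc5. A link between CHR matches and levels was not tested. Cenpf, with 0.0635 CPM per kb the lowest of the 42 genes per length, was at 1.52, 0.568 and 0.876 CPM in C, 0.702 and 0.786 CPM in DM-22, and 1.23 and 1.17 CPM in DM+SGLT2i. Cenpa, the histone variant of the centromere, lay between 0.994 and 1.92 CPM, with the C libraries spanning most of that range.

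Of the 7 genes of the spindle and cytokinesis, Tpx2, which activates Aurora A at the spindle, had the largest ratio of C replicate 2 to C replicates 8 and 9 of the 42 genes, 4.51. Tpx2 was at 2.91 CPM in C replicate 2, 0.716 and 0.577 CPM in C replicates 8 and 9, 1.58 and 1.36 CPM in DM-22, and 2.19 and 1.79 CPM in DM+SGLT2i. As for Mcm3, Mcm5 and the genes named with them, the groups did not overlap once C replicate 2 was set aside. Its log2 fold change in DM+SGLT2i against C was 0.59 ± 0.52 (limma adjusted p = 0.9997) with all C libraries and 1.12 ± 0.24 (adjusted p = 0.126) without C replicate 2. The motors Kif11, Kif20a and Kif23, the midzone protein Prc1 and the passenger protein Birc5 lay between 0.505 and 2.92 CPM, and the spindle protein Nusap1 between 2.92 and 4.28 CPM. Nusap1 was lower in C replicate 2 than in C replicates 8 and 9 (ratio 0.889), one of 4 such genes with Cdk2, Tk1 and Cenpe.

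Mki67, which encodes the proliferation antigen Ki-67, separated the diabetic groups. Mki67 was at 6.34 CPM in C replicate 2, 2.72 and 3.08 CPM in C replicates 8 and 9, 3.10 and 3.08 CPM in DM-22, and 7.91 and 5.87 CPM in DM+SGLT2i. The DM-22 libraries lay at the level of C replicates 8 and 9, and the DM+SGLT2i libraries at about that of C replicate 2. In DM+SGLT2i against DM-22 the log2 fold change was 1.03 ± 0.39 (unadjusted p = 0.0355, limma adjusted p = 0.881; 0.452 without C replicate 2). Top2a, the topoisomerase that untangles sister chromatids, was at 4.97, 2.25 and 2.03 CPM in C, 2.43 and 2.57 CPM in DM-22, and 4.97 and 3.34 CPM in DM+SGLT2i, a log2 fold change of 0.61 ± 0.42 between the diabetic groups (adjusted p = 0.881; 0.463 without C replicate 2). Their promoters hold 2 and 4 CHR matches. Unlike the mitotic kinases, Mki67 and Top2a hardly differed between the DM-22 libraries (ratio of replicate 1 to replicate 2, 1.01 and 0.947, against 2.14 for Cdk1).

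Lmnb1 and Hmgb2, named here after their values were seen, encode lamin B1 and a chromatin protein that are both known to be lost in senescent cells. Lmnb1 was at 8.65, 6.34 and 7.01 CPM in C, 5.04 and 5.18 CPM in DM-22, and 7.26 and 5.67 CPM in DM+SGLT2i. Hmgb2 was at 20.2, 15.5 and 19.4 CPM in C, 15.4 and 12.8 CPM in DM-22, and 17.7 and 15.6 CPM in DM+SGLT2i. For both genes the DM-22 libraries were the 2 lowest, and the highest value was that of C replicate 2, where Cdkn1a was at 72.7 CPM. The log2 fold change in DM-22 against C was -0.47 ± 0.21 for Lmnb1 and -0.37 ± 0.18 for Hmgb2 (limma adjusted p = 0.804 for each). With C replicates 8 and 9 alone it was -0.35 ± 0.18 and -0.29 ± 0.18 (adjusted p = 0.280 and 0.334).

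The other genes of the pathway, taken from lists of names, gave few calls as well. With all C libraries 0 passed the adjusted threshold, and without C replicate 2 only Cdkn1a did. Of 44 further replication genes, 41 were tested. Their summed level lay between 518 and 559 CPM in all libraries, a narrower range than that of the 13 replication members, and their median log2 fold change was -0.12 in DM-22 and -0.02 in DM+SGLT2i against C (-0.07 and -0.01 without C replicate 2). At an unadjusted p under 0.05 and all C libraries, 0 were higher (1.19% of all genes) and 2 lower (3.28%) in DM-22 against C, 0 (0.665%) and 0 (0.415%) in DM+SGLT2i against C, and 2 higher (2.25%) and 1 lower (1.66%) in DM+SGLT2i against DM-22. In the same order, the counts without C replicate 2 were 2 (10.4%) and 5 (14.8%), 4 (8.73%) and 2 (9.14%), and 3 (6.86%) and 1 (3.89%). Mcm10, which starts the helicase, was at 3.59, 5.37 and 5.53 CPM in C, 1.98 and 2.31 CPM in DM-22, and 4.89 and 4.03 CPM in DM+SGLT2i. Its log2 fold changes were -0.99 ± 0.25 in DM-22 against C (unadjusted p = 0.00599, limma adjusted p = 0.804) and 0.90 ± 0.27 in DM+SGLT2i against DM-22 (adjusted p = 0.881), the order seen in Cdk2 and Cenpe. The first was -1.17 ± 0.19 (limma adjusted p = 0.0826) without C replicate 2. Uhrf1, which guides DNMT1 to new DNA, was at 9.02, 1.60 and 1.97 CPM in C, 1.80 and 2.80 CPM in DM-22, and 5.26 and 3.88 CPM in DM+SGLT2i. As for Mki67, both DM+SGLT2i libraries lay above DM-22 and C replicates 8 and 9. Unlike for Mki67, C replicate 2 lay above both DM+SGLT2i libraries. The ligase gene Lig1 was at 11.1, 5.35 and 5.06 CPM in C, 10.7 and 7.61 CPM in DM-22, and 8.79 and 8.67 CPM in DM+SGLT2i. Dnmt1, the maintenance methyltransferase, was at 24.7, 30.1 and 27.3 CPM in C, 22.8 and 22.9 CPM in DM-22, and 32.8 and 28.4 CPM in DM+SGLT2i.

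Of 50 further mitosis genes, 31 were tested. Their median log2 fold change was 0.01 in DM-22 and 0.25 in DM+SGLT2i against all 3 C libraries, and 0.27 and 0.53 without C replicate 2, close to the values of the 21 mitosis members. With all C libraries, 1 was higher at an unadjusted p under 0.05 (1.19% of all genes) and 1 lower (3.28%) in DM-22 against C, 0 (0.665%) and 0 (0.415%) in DM+SGLT2i against C, and 1 higher (2.25%) and 1 lower (1.66%) between the diabetic groups. These counts were, without C replicate 2, 5 (10.4%) and 2 (14.8%), 4 (8.73%) and 1 (9.14%), and 2 (6.86%) and 1 (3.89%). Kif20b, a kinesin of cytokinesis, was at 2.95, 13.5 and 18.6 CPM in C, 4.86 and 2.52 CPM in DM-22, and 3.78 and 4.86 CPM in DM+SGLT2i, so that C replicate 2 lay with the diabetic libraries and below C replicates 8 and 9. Its log2 fold change in DM-22 against C was -1.27 ± 0.71 (limma adjusted p = 0.804) with all C libraries and -2.02 ± 0.33 (adjusted p = 0.0826) without C replicate 2. Gtse1, a regulator of p53 in G2, was at 2.86, 0.947 and 0.812 CPM in C, 2.77 and 1.46 CPM in DM-22, and 4.07 and 2.601 CPM in DM+SGLT2i. The condensin gene Smc4 was at 21.4, 20.7 and 22.3 CPM in C, 15.5 and 15.7 CPM in DM-22, and 20.8 and 19.7 CPM in DM+SGLT2i. Cdc25b, the phosphatase that activates CDK1, was at 13.1, 5.45 and 5.98 CPM in C, 12.4 and 8.09 CPM in DM-22, and 11.2 and 10.0 CPM in DM+SGLT2i.

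The 19 genes of the RB family, the E2F factors and the MuvB complex (17 tested) had median log2 fold changes of -0.11 in DM-22 and -0.08 in DM+SGLT2i against all 3 C libraries, and of -0.21 and -0.10 without C replicate 2. In DM-22 against all C libraries, 0 were higher at an unadjusted p under 0.05 (1.19% of all genes) and 1 lower (3.28%), with 0 (0.665%) and 0 (0.415%) in DM+SGLT2i against C, and 1 higher (2.25%) and 0 lower (1.66%) between the diabetic groups. Leaving out C replicate 2 gave 0 (10.4%) and 2 (14.8%), 0 (8.73%) and 1 (9.14%), and 1 (6.86%) and 2 (3.89%). Mybl2, which encodes B-MYB, the partner of MuvB, was at 0.605, 1.07 and 1.69 CPM in C, 0.252 and 0.162 CPM in DM-22, and 0.881 and 0.434 CPM in DM+SGLT2i. Both DM-22 libraries lay below all others, and the log2 fold change was -1.15 ± 0.39 against C (limma adjusted p = 0.804), or -1.40 ± 0.34 without C replicate 2 (adjusted p = 0.0999). Tfdp1, the dimer partner of E2F, was at 19.7, 26.0 and 24.8 CPM in C, 18.6 and 17.7 CPM in DM-22, and 22.3 and 19.5 CPM in DM+SGLT2i. Rbl2, which encodes p130, was at 58.4 CPM in C replicate 2 and 102 and 101 CPM in C replicates 8 and 9, with 92.1 and 81.8 CPM in DM-22 and 77.7 and 78.0 CPM in DM+SGLT2i. E2f5, an E2F that represses, was at 20.2, 24.2 and 26.6 CPM in C, 29.4 and 23.3 CPM in DM-22, and 15.7 and 21.2 CPM in DM+SGLT2i.

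Of 16 other cyclins, kinases and inhibitors of G1 (15 tested), 0 passed an unadjusted p under 0.05 in any comparison with all C libraries, where 1.19% and 3.28% (DM-22 against C), 0.665% and 0.415% (DM+SGLT2i against C) and 2.25% and 1.66% (between the diabetic groups) of all genes were higher and lower. Without C replicate 2, 2 were higher in DM-22 (10.4% of all genes) and 4 in DM+SGLT2i (8.73%), with 0 lower in either (14.8% and 9.14%) and 0 in either direction between the diabetic groups (6.86% and 3.89%). The median log2 fold change was 0.06 in DM-22 and 0.12 in DM+SGLT2i against all C libraries, and 0.25 and 0.17 without C replicate 2. Ccng1, which encodes cyclin G1 and, like Cdkn1a, is a target of p53, was at 443, 208 and 202 CPM in C, 390 and 420 CPM in DM-22, and 394 and 451 CPM in DM+SGLT2i. C replicate 2 lay with the diabetic libraries, and the log2 fold changes were 0.61 ± 0.35 in DM-22 (limma adjusted p = 0.804) and 0.67 ± 0.35 in DM+SGLT2i (adjusted p = 0.9997). Without it they were 0.98 ± 0.14 in DM-22 (limma adjusted p = 0.0826) and 1.04 ± 0.14 in DM+SGLT2i (adjusted p = 0.0749). Ccnd2, which encodes cyclin D2, was at 44.1, 16.9 and 21.8 CPM in C, 25.4 and 19.9 CPM in DM-22, and 31.8 and 27.0 CPM in DM+SGLT2i. Cdkn2c, which encodes the CDK4 inhibitor p18, was at 13.3, 11.3 and 11.7 CPM in C, 12.8 and 15.7 CPM in DM-22, and 15.01 and 15.6 CPM in DM+SGLT2i.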

How the data were processed

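RNA of renal tissue was sequenced in 7 libraries: 3 C, 2 DM-22 and 2 DM+SGLT2i, grouped by the sample labels. Per the labels, polyA RNA went into a directional kit, and the submitters' processing notes name bcl2fastq, FastQC, Trim Galore, STAR, edgeR and mm10, without versions. The authors deposited log2 values: CPM after TMM scaling (factors 0.891 to 1.08), with a floor of -4.66, although the design had assumed CPM. All 7 columns were used and 0 were left out. Each value and the floor were raised as powers of 2 and subtracted to give CPM, and 100% of these were whole reads (tolerance 0.02 reads). Genes under a total of 10 reads are not in the table.

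Genes reaching 1 CPM in 2 or more libraries were tested on log2(CPM + 0.5) with limma 3.58.1 in R 4.3.3 (3 groups in 1 fit, spread trended on expression, two-sided p, Benjamini-Hochberg over 13976 genes, threshold 0.05). Fold changes are on that scale, which understates low genes. The fit was tested on simulated reads with the same spread for all genes and no outlying library. That test therefore does not cover a library such as C replicate 2. Exon length and position came from GENCODE M21, in which all 17537 identifiers were found. Values were printed in full for members with an unadjusted p under 0.05 in any comparison, with or without C replicate 2 (up to 15 by smallest p), for Mki67, Top2a, Ccnd1, Pcna, Cdk1 and Mcm5, for the highest and lowest members, and for the 4 genes with the smallest p of each further list. The members and lists were chosen with earlier results of these data known. The study's text gives both sexes, the labels males only. Same-numbered diabetic libraries did not deviate together (r = -0.0412 over 13976 genes), so their numbers were not used as pairs.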

Additional observations from a re-analysis of the deposited data

How the results depend on the processing

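With 2 or 3 libraries a group, members under 1 CPM rest on few reads, and C replicate 2 decides the comparisons with C. No member was called under any of the 18 alternatives (offsets of 0.1 and 2 CPM, no filter or 1 CPM in all libraries, 2 other scalings, 2 groups alone, no trend, limma's voom on the recovered reads, each library left out, the replicate block, and, chosen after seeing the data, no filter without C replicate 2). That last setting called 2 genes of the table in DM-22 against C and 17 in DM+SGLT2i against C, where leaving out 1 library gave 0 to 2 and 0 to 17. The cause was not tested.

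The direction turned for these genes. In DM-22 against C, the log2 fold change of Mcm3 was -0.0096 with an offset of 2 CPM, -0.064 with library totals and -0.0044 with voom. Without C replicate 2 and without the filter, that of Mki67 was 0.080 and that of Top2a 0.18, and in DM+SGLT2i against C that of Pcna was 0.038. In DM+SGLT2i against DM-22, Cdkn1a was at 0.060 with library totals, which moved the median of all genes from 0.0045 to 0.11. Leaving out 1 library gave, in DM-22 against C, -0.16 to 0.61 for Mcm5, -0.24 to 0.53 for Mcm3, -0.083 to 0.61 for E2f1, -0.46 to 0.080 for Mki67, -0.0062 to 0.86 for Rrm2, -0.048 to 0.78 for Tpx2, -0.37 to 0.18 for Top2a and -0.31 to 0.49 for Cdk1. It gave -0.0043 to 0.46 for Ccnd1 and -0.23 to 0.038 for Pcna in DM+SGLT2i against C, and -0.094 to 0.70 for Cdk1 and -0.66 to 0.56 for Cdkn1a in DM+SGLT2i against DM-22. Of the list medians, only those of DM-22 against C turned, from -0.12 to 0.35 (replication) and -0.24 to 0.27 (mitosis) when 1 library was left out, and to -0.020 and -0.050 with library totals (the mitosis median also to -0.050 with 1 CPM in all libraries). Those of DM+SGLT2i ranged from 0.096 to 0.52 (replication) and 0.14 to 0.61 (mitosis) against C, and from 0.11 to 0.22 and 0.13 to 0.50 against DM-22. The counts of members at an unadjusted p under 0.05 in DM+SGLT2i against DM-22 ranged from 0 to 6.

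The replicate block between the diabetic groups, whose libraries share only a number, called 0 genes and put 2 members higher at an unadjusted p under 0.05.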
